A study of Homo sapiens with 34 samples.

Results

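RAB GTPases are small GTP-binding proteins that give each membrane compartment of the cell its identity and direct the vesicles that move between compartments. A guanine nucleotide exchange factor (GEF) loads a RAB with GTP on its membrane, the GTP-bound RAB recruits effectors such as tethers and motor adaptors, and a GTPase-activating protein (GAP) ends the signal. Each RAB carries geranylgeranyl lipids, attached by an escort protein and a transferase, and GDI proteins lift the GDP-bound form off the membrane for reuse. In retinal pigment epithelium, RABs are known for phagosome maturation, melanosome traffic and polarised secretion.

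Members were the genes whose symbol is RAB followed by a number and at most a letter and a digit, with a mean of at least 1 CPM over all libraries. CPM, the read count scaled for depth, was taken over the reads in all 3′ UTR intervals that name a single gene. Of 19041 genes counted, 62 had such a symbol and 42 of these were members, out of 11040 genes that reached 1 CPM. The other 20 lay below 1 CPM, and 4 of them had no read in any library. RAB13 had no interval of its own, and most or all reads of RAB4A, RAB4B, RAB5C and RAB43 lay in intervals that also name another gene, so their level here leaves those reads out. RAB4A, at 0.905 CPM, was the symbol just below the limit, and RAB3A, at 1.19 CPM, and RAB26, at 1.76 CPM, were the members just above it.

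SLAM-seq was done in hTERT-RPE1, a human line derived from retinal pigment epithelium and immortalised with telomerase, that carried doxycycline-inducible constructs for CCND1, the gene of cyclin D1. The knockdown line expressed an shRNA against the CCND1 3′ UTR, and the overexpression line expressed the same shRNA together with a CCND1 allele that it does not target. All samples, in both lines, received 0.5 µg/mL doxycycline throughout, and the labelled ones 10 µM 4-thiouridine (s4U) for 24 h before a chase with 1 mM uridine of up to 1440 min. In the study's account the knockdown makes cells larger and the overexpression makes them smaller, which makes the difference between the lines one of cell size as well as of cyclin D1. The constructs were delivered by lentivirus, the lines were polyclonal for CCND1 expression by the study's account, and no uninduced cells entered these libraries. There were 34 libraries, 17 of the knockdown line and 17 of the overexpression line, 30 labelled and 4 unlabelled, in 4 time courses given by line and replicate number. Only the endogenous 3′ UTR of CCND1 is read, so the transgene cannot be seen and the labels were taken as given.

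Libraries held 14712332 to 44480703 reads in 3′ UTRs. Most libraries correlated with the rest of their line at r of 0.968 or more over 9536 genes, while the overexpression 1 library at 720 min (r = 0.877), the unlabelled knockdown 1 library (r = 0.893) and the unlabelled overexpression 1 library (r = 0.919) stood apart. Of the marker genes of retinal pigment epithelium, RPE65, RLBP1, BEST1 and TYR averaged 0.108 CPM or less, whereas MITF (58.8 CPM) and PAX6 (77.4 CPM) were present, so the cells lacked the transcripts that define the differentiated tissue. Of 7 blood cell markers 6 lay at 0.0252 CPM or less and CD68 was at 25.1 CPM. Of 5 neuronal markers 3 lay at 0.0249 CPM or less, while SYT1 (12.1 CPM) and SNAP25 (2.11 CPM) were both higher in the knockdown line, by 1.58 and 1.85 on the log2 scale.

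RAB transcripts were present for every compartment. By reads in the 3′ UTR, where each mRNA gives reads at its end whatever its length, the highest was RAB2A, which acts between the ER and the Golgi, at a mean of 334.7 CPM over the 34 libraries. That sum may count reads more than once: it covers 6 intervals at 1 CPM or more, of which an 84-base and a 3-base interval, at 77.6 and 61.8 CPM, lie 6 bases apart. Its 2954-base interval alone gave 169.3 CPM. RAB7A, the RAB of late endosomes and lysosomes, averaged 293.7 CPM, RAB3B, of the secretory RAB3 group, 274.3 CPM, and RAB34, which acts at the Golgi and in cilium formation, 265.8 CPM. RAB31 (179.7 CPM) was the highest of the early endosome, RAB11A (178.7 CPM) the highest of recycling and RAB23 (25.7 CPM), a regulator of Hedgehog signalling at the cilium, the highest of the remaining members. RAB38, RAB27A and RAB32, which serve melanosomes and related organelles in pigment cells, averaged 17.2, 51.5 and 101.5 CPM although TYR, the melanin-making enzyme, was near 0.

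**Figure D1:**
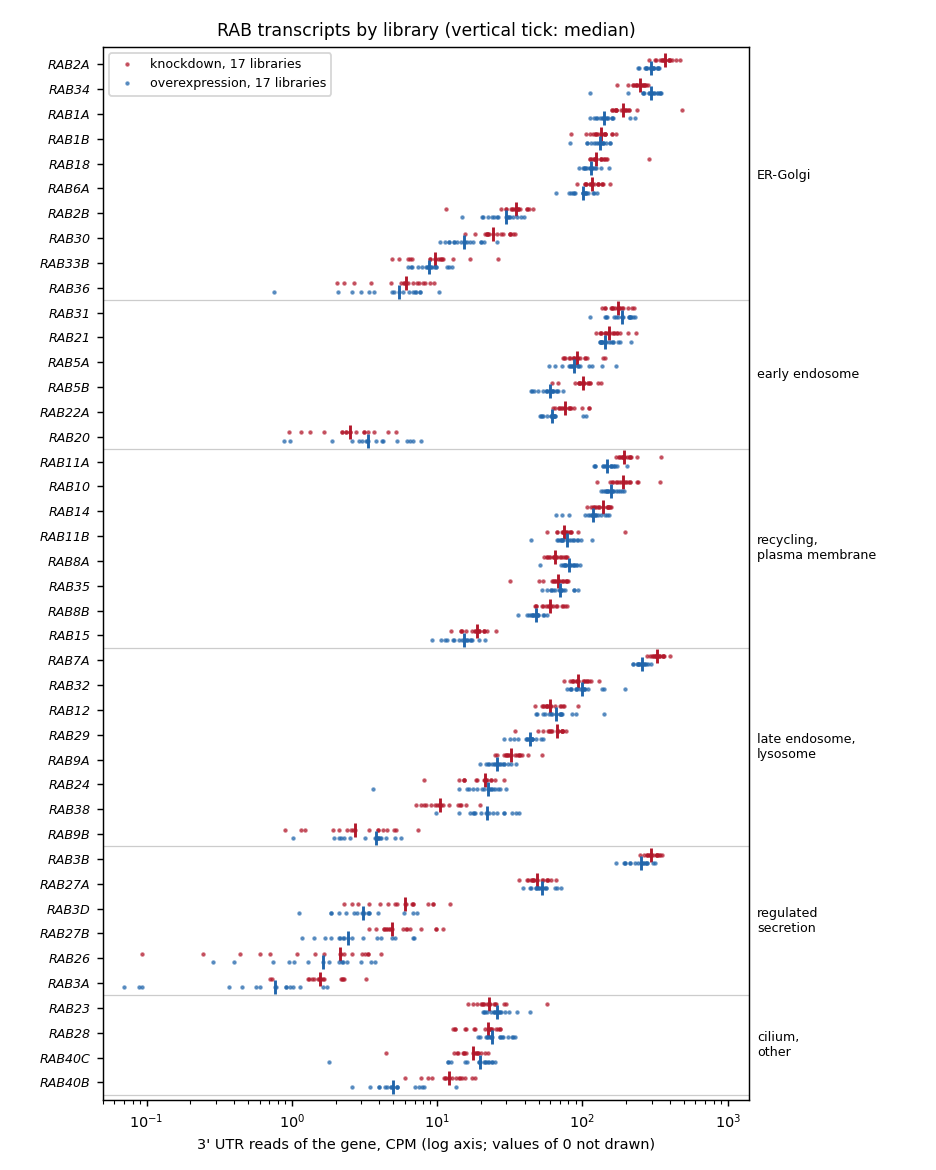
Level of each of the 42 members in each library, in CPM on a log axis, with 17 knockdown libraries (red) above 17 overexpression libraries (blue), the median as a tick, and members grouped by role. Levels span from about 1 CPM for RAB3A to over 300 CPM for RAB2A, and the libraries of both lines overlap for every member.

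The summed level of the 42 members was 3948 and 3763 CPM in the knockdown courses and 3363 and 3322 CPM in the overexpression courses, each course being the sum of the 6 samples that all courses share (unlabelled, 0, 180, 360, 720 and 1440 min), scaled by TMM. The means were 3856 ± 131.4 CPM in knockdown and 3343 ± 29.0 CPM in overexpression (SD, n = 2 courses each), a difference of 0.21 on the log2 scale. Both knockdown courses lay above both overexpression courses. By library the sums ranged from 3590 to 4644 CPM in knockdown and from 3235 to 3520 CPM in overexpression and did not overlap. Sums of other gene sets were not compared. Abundant members weigh most in the sum, among them RAB2A, whose reads may be counted more than once (365.5 CPM in knockdown and 294.4 CPM in overexpression). The highest sum, 4644 CPM, was that of the unlabelled knockdown 1 library. Without the unlabelled and 720 min samples the course sums were 3800 and 3767 CPM in knockdown and 3388 and 3298 CPM in overexpression, a log2 difference of 0.18. Recycling RABs summed to 856.9 ± 59.99 CPM in knockdown and 714.6 ± 2.60 CPM in overexpression (without those samples, 815.8 ± 21.6 CPM in knockdown and 724.2 ± 18.3 CPM in overexpression), and Golgi RABs to 1293 ± 20.7 CPM in knockdown and 1128 ± 9.11 CPM in overexpression (without those samples, 1259 ± 29.1 CPM in knockdown and 1143 ± 24.2 CPM in overexpression). The 4 cilium and other members summed to 75.5 ± 2.32 CPM in knockdown and 74.9 ± 1.98 CPM in overexpression, a gap smaller than the spread between courses, and to 75.0 ± 0.410 CPM in knockdown and 77.5 ± 2.68 CPM in overexpression without those samples, where the order turned.

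Between the lines, all 42 members could be tested. In edgeR's quasi-likelihood test on the 2 against 2 course sums, 10 (23.8%) passed an adjusted p of 0.05. This stands beside 21.9% of the 13165 genes tested and 25.3% of the 11040 genes at 1 CPM or more, so the share of members that changed was near both. Members had to reach 1 CPM, so 25.3% is the like share for the role groups below, where 21.9% is given. By direction, 9 members (21.4%) were higher in the knockdown line, beside 11.2% of all genes, and 1 (2.38%) was lower, beside 10.7% of all genes. Of the 11040 genes at 1 CPM or more, 1396 were higher and 1398 lower. Without the unlabelled and 720 min samples, where the libraries that stood apart lie, 14 members were higher and 3 lower, 40.5% in all beside 30.9% of all genes. The median log2 difference, knockdown over overexpression, was 0.20 over the members and -0.01 over all genes tested, with 28 members above 0 and 14 below. The differences were small: 32 members lay within 0.5 of 0 on the log2 scale and 3 exceeded 1. No member had all 17 knockdown libraries clear of all 17 overexpression libraries, beside 2.91% of the genes at 1 CPM or more. In these bulk samples, fewer cells with a transcript and less of it per cell cannot be told apart, and CPM gives a share of the RNA, not copies per cell. P-values measure the spread between 2 courses per line, which may have shared a culture for all that the labels tell.

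**Figure D2:**
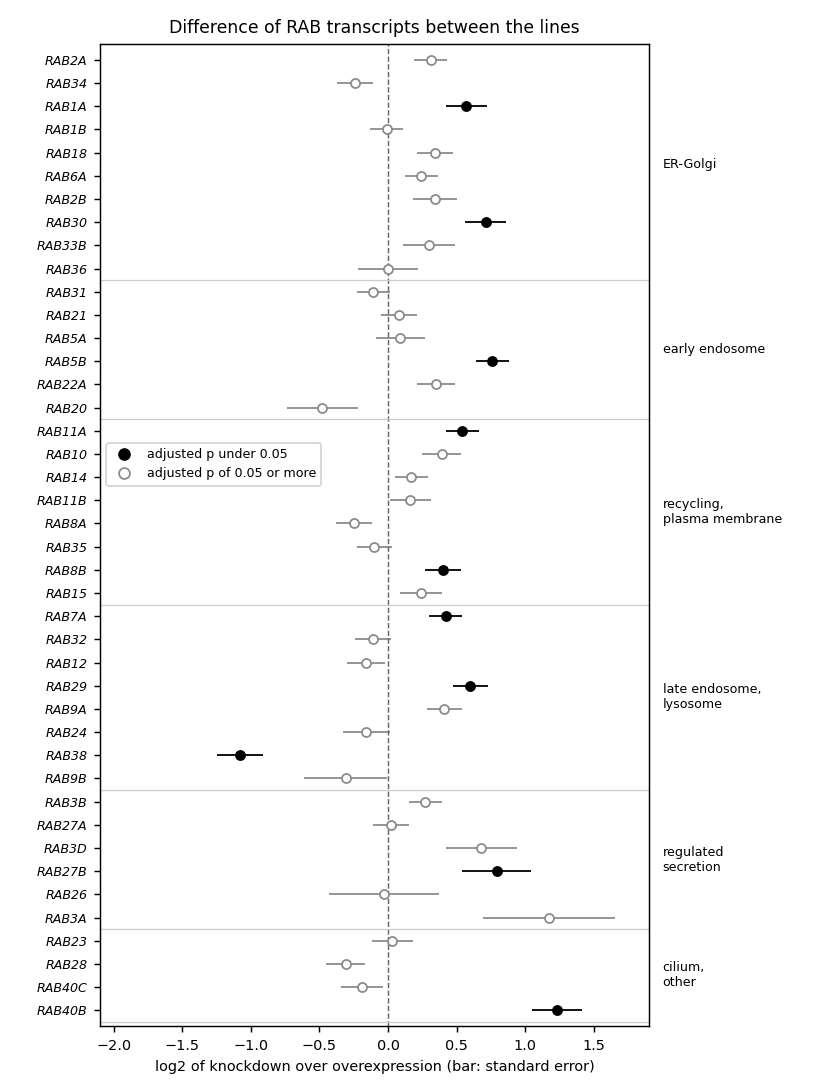
Log2 of knockdown over overexpression for each member with its standard error, grouped by role and ordered by level within a role, from 2 courses per line. Filled points passed an adjusted p of 0.05: 9 lie right of 0 and RAB38 lies left of it at -1.08.

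Of the RABs of the ER and Golgi, 8 of 10 lay above 0 with a median of 0.30, beside 6502 of 13165 genes and a median of -0.01. The test was passed by 2 of them (20%), beside 21.9% of all genes. RAB1A, needed for the step from ER to Golgi, had 243.1 and 190.9 CPM in the knockdown courses and 158.5 and 133.0 CPM in the overexpression courses. It was higher in knockdown by 0.57 on the log2 scale (SE 0.15, adjusted p = 0.0211, edgeR). Its highest library was the unlabelled knockdown 1 library at 486.2 CPM, against 170.4 CPM in the unlabelled knockdown 2 library, and without the unlabelled and 720 min samples the difference was 0.50 (adjusted p = 0.00244, edgeR). Without knockdown replicate 1 it was 0.39 and no longer passed (adjusted p = 0.145, edgeR). RAB30, a Golgi RAB counted in its 3′ UTR at chr11:82973133-82982277 (hg38), had 25.5 and 24.6 CPM in knockdown and 14.8 and 15.8 CPM in overexpression. It was 1.64-fold higher (log2 0.71, SE 0.15, adjusted p = 0.00692, edgeR), a gap far wider than that between the courses of a line. RAB2A had 364.7 and 366.2 CPM in knockdown and 301.5 and 287.3 CPM in overexpression (log2 0.31, SE 0.12), which missed the threshold (adjusted p = 0.0815, edgeR) but passed without the unlabelled and 720 min samples (0.28, adjusted p = 0.0373, edgeR). RAB34, with 223.4 and 259.6 CPM in knockdown and 275.5 and 295.3 CPM in overexpression, ran the other way and did not pass either (log2 -0.24, SE 0.13, adjusted p = 0.208, edgeR). Without the unlabelled and 720 min samples it passed as lower in knockdown (-0.31, adjusted p = 0.0291, edgeR).

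Among the 6 RABs of early endosomes, which sort internalised cargo, only RAB5B passed (16.7%, beside 21.9% of all genes). RAB5B, read over its 3′ UTR at chr12:55992097-55996683 (hg38), had 100.9 and 99.2 CPM in knockdown and 60.2 and 58.2 CPM in overexpression, and was 1.69-fold higher (log2 0.76, SE 0.12, adjusted p = 0.00186, edgeR). By library it ran from 61.8 to 134.3 CPM with a median of 100.4 in knockdown, and from 44.0 to 73.1 CPM with a median of 60.2 in overexpression, and both knockdown libraries lay above both overexpression libraries in 4 of the 6 shared samples. Its paralogue RAB5A had 114.1 and 82.8 CPM in knockdown and 105.3 and 80.1 CPM in overexpression (log2 0.09, SE 0.18). RAB5B over RAB5A was therefore 0.885 and 1.20 in the knockdown courses and 0.572 and 0.726 in the overexpression courses. The ratios did not overlap, but RAB5B had passed on these same course sums, so they add no separate support. RAB31, the most abundant of the group and a regulator of traffic from the trans-Golgi network to endosomes, had 170.7 and 182.9 CPM in knockdown and 188.9 and 191.7 CPM in overexpression and did not pass (log2 -0.11, SE 0.12, adjusted p = 0.577, edgeR).

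Among the 8 RABs of recycling and delivery to the plasma membrane, RAB11A and RAB8B passed. That is 25%, beside 21.9% of all genes and 25.3% of those at 1 CPM or more. RAB11A, which marks the recycling endosome, had 223.8 and 202.5 CPM in knockdown and 145.2 and 147.0 CPM in overexpression, and was 1.46-fold higher (log2 0.54, SE 0.12, adjusted p = 0.00982, edgeR). Both knockdown libraries lay above both overexpression libraries in all 6 shared samples. The unlabelled knockdown 1 library, at 349.0 CPM, was its highest, and without the unlabelled and 720 min samples the difference was 0.36 (adjusted p = 0.0126, edgeR), which still passed. Without knockdown replicate 1 it was 0.47 and did not pass (adjusted p = 0.0618, edgeR). RAB8B, which moves cargo to the cell surface, had 64.6 and 62.1 CPM in knockdown and 48.5 and 47.5 CPM in overexpression (log2 0.40, SE 0.13, adjusted p = 0.0453, edgeR), just inside the threshold, and each removal of a single course took it outside. The paralogues RAB11B (log2 0.16, SE 0.15) and RAB8A (log2 -0.25, SE 0.13) did not pass. RAB8B over RAB8A was 0.939 and 0.995 in knockdown and 0.647 and 0.588 in overexpression. RAB11A over RAB11B was 2.31 and 2.66 in knockdown and 1.99 and 1.80 in overexpression. Neither ratio overlapped between the lines, but RAB8B and RAB11A had passed on these same course sums, so this is no separate support. RAB2A over RAB2B, of the Golgi group, overlapped, at 11.8 and 9.61 in knockdown and 11.9 and 9.84 in overexpression. The share of gene pairs without overlap was not counted.

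The 8 RABs of late endosomes, lysosomes and lysosome-related organelles were split, with 3 above 0, 5 below and a median of -0.14. Of these, 2 passed as higher and 1 as lower, which is 37.5% called beside 21.9% of all genes. RAB7A, which drives the fusion of late endosomes and phagosomes with lysosomes, had 335.1 and 343.2 CPM in knockdown and 245.5 and 259.7 CPM in overexpression, and was 1.34-fold higher (log2 0.42, SE 0.12, adjusted p = 0.0266, edgeR). In all 6 shared samples both knockdown libraries lay above both overexpression libraries. The test sums these same samples, so this order is no separate support. The call needed all 4 courses: leaving out any single one gave log2 differences of 0.38 to 0.48 and an adjusted p of 0.0564 to 0.153 (edgeR). RAB29, which recruits the kinase LRRK2 to the Golgi and stressed lysosomes, had 62.7 and 61.6 CPM in knockdown and 40.2 and 41.9 CPM in overexpression and was 1.51-fold higher (log2 0.60, SE 0.13, adjusted p = 0.00835, edgeR). RAB9A, which returns mannose 6-phosphate receptors from late endosomes to the Golgi, had 34.9 and 35.0 CPM in knockdown and 25.6 and 27.0 CPM in overexpression and lay just outside the threshold (log2 0.41, SE 0.13, adjusted p = 0.0513, edgeR). Without the unlabelled and 720 min samples it passed (0.36, adjusted p = 0.0406, edgeR).

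RAB38 was the only member that passed as lower in knockdown when all 6 shared samples were summed. Without uninduced cells, a fall in the knockdown line cannot be told from a rise in the overexpression line. RAB38 and its relative RAB32 bring melanin enzymes to maturing melanosomes. RAB38, whose 3′ UTR lies at chr11:88113242-88114123 (hg38), had 10.4 and 12.9 CPM in knockdown and 23.0 and 26.0 CPM in overexpression, 2.11-fold lower in the knockdown line (log2 -1.08, SE 0.17, adjusted p = 0.00154, edgeR). By library it ran from 7.201 to 19.7 CPM with a median of 10.5 in knockdown, and from 9.76 to 36.5 CPM with a median of 22.0 in overexpression, and both knockdown libraries were below both overexpression libraries in 5 of the 6 shared samples. RAB32 had 96.6 and 98.4 CPM in knockdown and 112.9 and 97.6 CPM in overexpression (log2 -0.11, SE 0.13, adjusted p = 0.592, edgeR). RAB38 over RAB32 was 0.107 and 0.131 in knockdown and 0.204 and 0.266 in overexpression. Of 8 tested markers of retinal pigment epithelium and of epithelial or mesenchymal state, 3 were higher in knockdown, MITF (log2 0.96, adjusted p = 0.00184, edgeR), KRT8 (0.92) and KRT18 (0.63). PAX6 was lower (log2 -0.72, adjusted p = 0.00263, edgeR), and OTX2, TJP1, VIM and BEST1 did not pass. Their part in the difference of RAB38 was not tested.

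The RABs of regulated secretion dock secretory vesicles at the plasma membrane, and 5 of 6 lay above 0 with a median of 0.48. The test was passed by 1 of the 6 (16.7%), beside 21.9% of all genes. RAB27B had 6.52 and 5.90 CPM in knockdown and 4.10 and 3.10 CPM in overexpression and was higher (log2 0.79, SE 0.25, adjusted p = 0.0443, edgeR), though without knockdown replicate 1 (0.72), knockdown replicate 2 (0.86) or overexpression replicate 2 (0.61) it no longer passed. Its paralogue RAB27A, at 52.2 and 50.4 CPM in knockdown and 53.8 and 47.1 CPM in overexpression, differed by 0.02 (SE 0.13). RAB3B, the most abundant of the group, had 316.0 and 299.6 CPM in knockdown and 243.2 and 265.6 CPM in overexpression (log2 0.27, SE 0.12, adjusted p = 0.131, edgeR), and passed without the unlabelled and 720 min samples (0.27, adjusted p = 0.0477, edgeR). RAB3A, at 1.78 CPM in each knockdown course and 0.674 and 0.906 CPM in the overexpression courses, had a larger difference with a wide error (log2 1.17, SE 0.48, adjusted p = 0.112, edgeR).

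Of the remaining 4 members RAB40B, which belongs to a branch with a SOCS box that joins cullin ubiquitin ligases, had the largest difference of all members. It alone of the 4 passed (25%, beside 21.9% of all genes and 25.3% of those at 1 CPM or more). Over its 3′ UTR at chr17:82654973-82657862 (hg38) it had 12.6 and 12.8 CPM in knockdown and 5.52 and 5.35 CPM in overexpression, 2.34-fold higher (log2 1.23, SE 0.18, adjusted p = 0.00119, edgeR). By library it ran from 5.98 to 18.3 CPM with a median of 12.1 in knockdown, and from 2.58 to 13.5 CPM with a median of 4.99 in overexpression. RAB40C had 15.3 and 17.02 CPM in knockdown and 17.7 and 19.0 CPM in overexpression (log2 -0.19, SE 0.15), so that RAB40B over RAB40C was 0.825 and 0.752 in knockdown and 0.312 and 0.281 in overexpression. RAB23 had 28.3 and 23.8 CPM in knockdown and 25.7 and 25.5 CPM in overexpression (log2 0.03, SE 0.15, adjusted p = 0.923, edgeR).

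**Figure D3:**
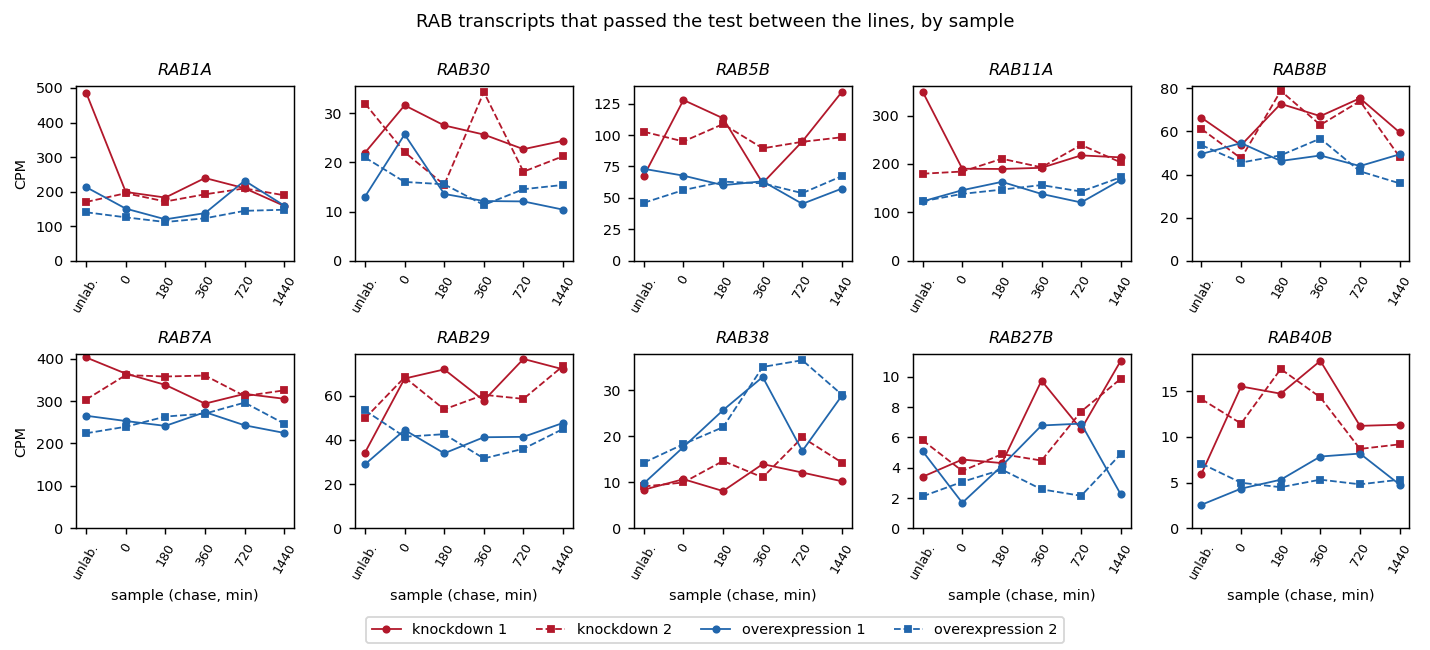
CPM of the 10 members that passed the test between the lines, in each of the 6 samples that all courses share, with knockdown courses in red and overexpression courses in blue. RAB7A and RAB11A keep both red points above both blue points in all 6 samples. RAB29 and RAB40B do so in 5, RAB5B, RAB30 and RAB8B in 4, and RAB1A and RAB27B in 3. RAB38 runs the other way, in 5 samples. The share of all genes with such an order was not counted. The unlabelled knockdown 1 library is the high first point of RAB1A and RAB11A.

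Below 1 CPM, 9 more RAB symbols could be tested and RAB6B alone passed (adjusted p = 0.0185, edgeR). RAB6B had 0.719 and 0.145 CPM in the knockdown courses and 0.00607 and 0 CPM in the overexpression courses, which are 155 reads against 1 read in the shared samples. Scaled for depth, that is a ratio of 145 with an exact 95% interval of 25.6 to 5764, which covers counting error only. The reads were uneven, with 67 in a single knockdown library and none in 8 of the 17.

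The promoters of the members were searched for TCACGTG on either strand, the core letters to which MITF, TFEB and TFE3 bind in lysosomal genes, a search chosen after MITF was seen to be higher in knockdown. RefSeq promoter sequences (GRCh38.p14, 250 bases before to 50 bases after the gene start) were at hand for 33 of the 42 members, and 5 of these (15.2%) held the letters. Of all 35116 promoter sequences 3.71% held them. The share of members counts genes and the other counts sequences, of which a gene may have several, so they are unlike measures. Of the 8 members with a promoter at hand that had passed the test between the lines, 1 held them, RAB29, past its start. The other 4 were not among the members that passed. A match is a description of the letters only. The windows of 30 bases are shown to set RAB29 beside the members that held the letters and did not pass, with the match in capitals (CACGTGA is the same letters on the complementary strand).
RAB29, chr1:205775445-205775474, minus strand: aggcaaccctgCACGTGAcgcttgcggagg
RAB5A, chr3:19946964-19946993, plus strand: cactcgcagggTCACGTGacatcctgcctc
RAB21, chr12:71754831-71754860, plus strand: ggcaccggcgcTCACGTGacccgaggtgtg
RAB24, chr5:177303731-177303760, minus strand: ggcgcccgcgcCACGTGAccttgcggcccc
RAB31, chr18:9708230-9708259, plus strand: cggccggcggcCACGTGAcccaccgcggcg

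In the genes that run the RAB cycle, the share that passed in each list is to be read beside the 21.9% of all genes. None of 7 tested genes for prenylation, escort and GDI passed, with a median log2 difference of 0.03. GDI2, the main GDI here, averaged 322.1 CPM in knockdown and 319.3 CPM in overexpression (log2 0.01, adjusted p = 0.959, edgeR). Of 30 tested RAB GEFs 1 was higher and 3 lower (13.3% called, median 0.04). DENND4A was higher (log2 0.73) and DENND4B lower (-0.56), while DENND4C did not pass (-0.17). RAB3IP, which is Rabin8, the exchange factor for RAB8, was lower (log2 -0.77), as was HPS4 (-0.53), a subunit of the BLOC-3 complex that activates RAB32 and RAB38. Of 29 tested RAB GAPs 3 were higher (EVI5L, 0.72, TBC1D17, 0.64, and TBC1D20, 0.53, the last a GAP for RAB1) and TBC1D4, which restrains RAB10 in glucose transporter traffic, was lower (-0.64), with 13.8% called and a median of 0.18.

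Of 34 tested RAB effectors 7 were higher and 1 lower, which is 23.5% called, near the share of all genes, with a median of 0.28 beside -0.01 over all genes. OPTN, an autophagy receptor bound by RAB8, averaged 163.3 ± 5.44 CPM in knockdown and 105.3 ± 4.04 CPM in overexpression (SD, n = 2 courses each, log2 0.63, adjusted p = 0.00441, edgeR). PLEKHM1, a RAB7 effector that brings late endosomes to lysosomes, was higher by 0.70 on the log2 scale, RAB11FIP5, a RAB11 effector, by 0.50 and MLPH, the RAB27A adaptor for melanosomes, by 0.58. RAB11FIP2, another RAB11 effector, was the one that was lower (log2 -0.45, adjusted p = 0.0479, edgeR). Among 15 other small GTPases of membrane traffic 4 passed (26.7%) and all were higher, with a median of 0.07 over the list. They included ARF4 (0.62), ARL1 (0.56) and ARF3 (0.54), all of the Golgi.

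Over the chase, RAB abundance did not change detectably. Between 1440 and 0 min, 4 libraries against 4 with the line as a covariate, 0 of 42 members passed in edgeR, beside 4.63% of 11927 genes tested, and 0 passed in DESeq2. The median change was -0.03 on the log2 scale over members and 0.00 over all genes, and 6 members (14.3%) had an unadjusted p under 0.05, beside 18.3% of all genes. RAB30 had 24.4 and 21.3 CPM at 1440 min in the knockdown courses, and 10.4 and 15.4 CPM at 1440 min in the overexpression courses, against 31.6 and 22.1 CPM at 0 min in knockdown and 25.7 and 16.04 CPM at 0 min in overexpression (log2 -0.53, SE 0.20, adjusted p = 0.145, edgeR), lower in 4 of 4 courses. RAB27B had 11.1 and 9.87 CPM at 1440 min in knockdown and 2.24 and 4.90 CPM at 1440 min in overexpression, against 4.54 and 3.79 CPM at 0 min in knockdown and 1.69 and 3.07 CPM at 0 min in overexpression (log2 0.90, SE 0.38, adjusted p = 0.195, edgeR), higher in 4 of 4 courses. The change over the chase differed between the lines for 0 of 42 members in edgeR and in DESeq2 (1 at an unadjusted p under 0.05), beside 0.0163% of 12280 genes.

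The label itself came with no detectable change of RAB levels, in a test with wide errors. The unlabelled knockdown 1 and overexpression 1 libraries stood apart, and RAB1A, for example, had a log2 difference of -0.53 with an SE of 0.29. The test therefore cannot show that the label left RAB levels unchanged. Between s4U-labelled cells at 0 min and unlabelled cells, 0 of 42 members passed in edgeR, 0 in DESeq2 and 1 at an unadjusted p under 0.05, beside 0% of 11826 genes, of which 402 had an unadjusted p under 0.05. That member was RAB40C, with 19.5 to 22.5 CPM in the 4 labelled libraries and 4.44 to 17.7 CPM in the 4 unlabelled ones (log2 0.89, SE 0.37, adjusted p = 0.887, edgeR), its lowest value being in the unlabelled knockdown 1 library. In the second courses alone, without the unlabelled libraries that stood apart, 0 members passed as well, though genes outside the members did.

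Decay was read from the rate of T>C conversions among the T bases of the reads, which falls as labelled copies are lost. At 0 min the 22 members with a half-life in all 4 courses had a median rate of 1.10% and 1.04% in the knockdown courses and 1.14% and 1.14% in the overexpression courses, beside 0.00943% and 0.0213% in the unlabelled knockdown libraries and 0.00839% and 0.0138% in the unlabelled overexpression libraries. At 360 min a median of 43.9% and 52.0% of the label was left in knockdown and 47.9% and 38.4% in overexpression. At 720 min it was 11.6% and 13.0% in knockdown and 1.29% and 4.93% in overexpression, the lowest of these being in the overexpression 1 library that stood apart. At 1440 min it was 1.47% and 1.40% in knockdown and 0.394% and 0.706% in overexpression. The 2 values of knockdown lay above those of overexpression at 720 and 1440 min and overlapped them at 360 min.

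Half-lives came from exponential fits, kept where R2 was at least 0.6. Of the 42 members 37 had a half-life in at least 1 course and 22 in all 4. Over these 22 the means of the courses ran from 2.69 to 9.65 h with a median of 5.44 h in knockdown, and from 2.26 to 8.65 h with a median of 5.16 h in overexpression, beside medians of 5.14 h in knockdown and 4.68 h in overexpression over 3314 genes. Among these 22, the most long-lived were RAB34, RAB7A and RAB11A. RAB1B, outside the 22, passed the R2 minimum in 1 course only, at 11.1 h in overexpression course 1. At 720 min RAB1B kept 103.4% and 67.7% of its label in knockdown and 17.7% and 49.4% in overexpression. RAB34 had 9.62 and 8.19 h in knockdown and 9.50 and 7.79 h in overexpression, so that its courses overlapped. Among the same 22, the most short-lived were RAB28, RAB12 and RAB29. They had 2.69 ± 1.88, 5.06 ± 0.199 and 3.41 ± 1.94 h in knockdown and 4.11 ± 2.32, 2.26 ± 0.562 and 3.94 ± 0.685 h in overexpression (SD, n = 2 courses each). RAB9A, outside the 22, had 1.94 h in knockdown course 1 and 3.90 and 0.382 h in overexpression. For RAB28 the courses of a line differed more than the lines did.

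Between the lines, 0 of 22 members had a half-life that passed limma's test, beside 0% of 3314 genes. At an unadjusted p under 0.05 there were 1 member and 256 genes. The median log2 ratio, knockdown over overexpression, was 0.32 over the members and 0.20 over all genes, with 18 of 22 members (81.8%) and 68.1% of all genes longer in knockdown. Without the 720 min library of overexpression course 1 these values were 0.22 and 0.11, with 14 of 22 members longer, and without overexpression replicate 2 it was 13 of 22. RAB12, which sends transferrin receptor to lysosomes, had the largest ratio, with 5.20 and 4.92 h in knockdown and 1.87 and 2.66 h in overexpression (log2 1.18, SE 0.32, adjusted p = 0.641, limma). Its level did not pass between the lines (log2 -0.16, SE 0.14, adjusted p = 0.462, edgeR).

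Among the members whose level was higher in knockdown, half-lives overlapped between the lines for some and not for others. RAB11A had 10.3 and 8.91 h in knockdown and 5.995 and 5.92 h in overexpression (log2 0.69, SE 0.29, adjusted p = 0.641, limma), with no overlap, and 7.57 h in place of 5.995 h without the 720 min library. RAB7A had 7.97 and 11.3 h in knockdown and 6.99 and 5.40 h in overexpression (log2 0.63, SE 0.34, adjusted p = 0.641, limma), and its 6.99 h became 8.53 h without that library, above its lower knockdown value. RAB1A had 5.65 and 5.52 h in knockdown and 6.55 and 4.05 h in overexpression, RAB5B 3.94 and 6.51 h in knockdown and 6.13 and 3.38 h in overexpression, and RAB29 2.04 and 4.78 h in knockdown and 3.46 and 4.43 h in overexpression, all overlapping. RAB8B, RAB30, RAB38, RAB27B and RAB40B lacked a half-life in at least 1 course. The half-life of RAB3B was 8.33 and 9.18 h in knockdown and 6.21 and 6.09 h in overexpression (log2 0.51, SE 0.29, adjusted p = 0.641, limma).

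**Figure D4:**
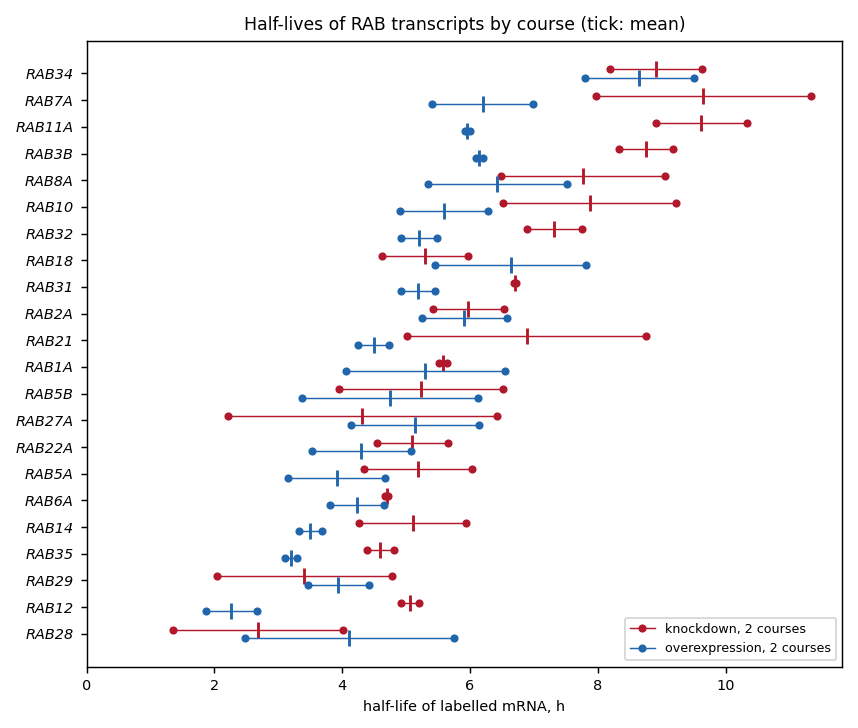
Half-life in hours of the 22 members measured in all 4 courses, as 2 knockdown courses (red) above 2 overexpression courses (blue), joined by a line with the mean as a tick, in order of the mean. RAB12, RAB11A and RAB3B show no overlap between the lines, and neither do RAB7A, RAB10, RAB14, RAB21, RAB31, RAB32, RAB35 and RAB6A. The rest, RAB34, RAB2A and RAB28 among them, overlap. Without the 720 min library of overexpression course 1, that course gave 8.53 h for RAB7A, 5.65 h for RAB21 and 5.54 h for RAB6A. Those lie above their lower knockdown values of 7.97, 5.02 and 4.67 h, so that these 3 then overlap. The share of all genes without overlap was not counted.

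RAB7A had 69.1% and 87.6% of its label left at 360 min in knockdown and 63.0% and 50.6% in overexpression, and 30.3% and 39.5% at 720 min in knockdown and 14.6% and 17.2% in overexpression. RAB11A had 38.4% and 19.3% left at 720 min in knockdown and 6.10% and 11.8% in overexpression. The first overexpression value at 720 min, for both genes, is from the library that stood apart. RAB12 had 43.3% and 28.0% left at 360 min in knockdown and 13.2% and 9.43% in overexpression. For these times and genes, both knockdown courses kept more label than both overexpression courses. RAB34 had 89.7% and 69.5% left at 360 min in knockdown and 87.1% and 67.2% in overexpression, with the lines overlapping.

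**Figure D5:**
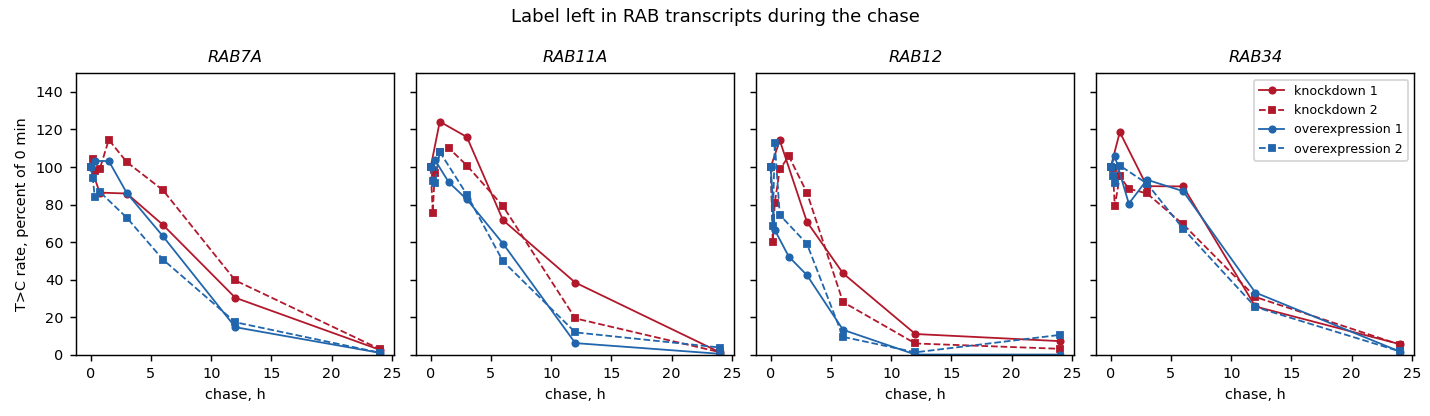
T>C rate above the unlabelled background, in percent of that at 0 min, against hours of chase for RAB7A, RAB11A, RAB12 and RAB34, with knockdown courses in red and overexpression courses in blue. The red courses of RAB12 lie above the blue ones from 180 to 720 min of chase, and the 4 courses of RAB34 overlap.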

How the data were processed

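Members and gene lists were chosen with earlier results of these data known. By the study's methods the libraries (QuantSeq 3′ FWD, 75 ng of RNA) were built by a sequencing service, which ran SLAMdunk (0.4.3) against hg38. For each of 71668 3′ UTR intervals the deposited tables give read counts, multimapped counts, covered T bases and T>C conversion counts. The CPM deposited by the authors is per mapped read and was used to find library sizes alone. The authors' conversion rate, deposited as a fraction, equalled conversions over covered T bases to within 1.0e-16. Which annotation release defined the intervals was not stated in what was read here.

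Intervals of a symbol were summed, and 1168 intervals naming several genes were left out. Libraries had 14712332 to 44480703 reads in 3′ UTRs, without molecular identifiers, so counting intervals cover counting error only. Abundance was tested with edgeR 4.0.16 (TMM, filterByExpr, quasi-likelihood), with the counts of a course summed over 6 shared samples for the lines and single libraries for the other comparisons. P-values were adjusted by Benjamini-Hochberg over all genes tested, at 0.05.

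Before half-lives were fitted, 7814 intervals were dropped in which multimapped reads exceeded 10%. The T>C rate minus that of the unlabelled library of the course, from time points at 1 CPM or more, was divided by its 0 min value and fitted to exp(-Kt) over at least 4 time points, with an R2 of at least 0.6, and log2 half-lives were tested with limma 3.58.1. Named members were those called between the lines, RAB7A, the most abundant of each role and members called by another test. Also named were the 3 shortest and 3 longest half-lives among members measured in all 4 courses. Up to 4 called genes per machinery list were named too. Other paralogues, RAB9A, RAB3A and RAB12 were named after their values were seen. The edgeR test between the lines, the half-life fit and the limma test were checked on simulated data. The edgeR tests of the chase, of the label and of the chase between the lines were not. DESeq2 1.42.0, other filters, left-out libraries and a replicate block were the alternatives.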

Additional observations from a re-analysis of the deposited data

Results flagged for a closer look

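Reads of 5 RAB symbols lay in intervals that also name another gene and entered no comparison above, where they were well above a count of 0. With those intervals added, RAB13 (shared with AL358472.6) averaged 286.9 CPM over the 34 libraries, with 47.5% of its reads multimapped, and RAB5C (shared with AC099811.2) averaged 277.4 CPM. RAB4A (shared with SPHAR) averaged 40.5 CPM, RAB43 (shared with ISY1-RAB43) 27.6 CPM with 97.4% multimapped, and RAB4B (shared with MIA-RAB4B and RAB4B-EGLN2) 5.49 CPM. How many of these reads belong to the RAB was not tested. In the edgeR fit with these intervals added, a choice made after seeing the data, RAB4A was higher in the knockdown line (log2 0.57, SE 0.14, adjusted p = 0.0154) and so was RAB43 (log2 0.55, SE 0.14, adjusted p = 0.0164). RAB5C (log2 0.14, SE 0.12), RAB13 (log2 -0.06, SE 0.17) and RAB4B (log2 0.47, SE 0.24) did not pass. RAB13 ran from 173.3 to 368.4 CPM in the knockdown libraries and from 197.1 to 837.0 CPM in the overexpression libraries.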

How the results depend on the processing

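Of 42 members, 10 passed between the lines. The count was 22 (18 higher, 4 lower) with the replicate number as a block, 23 (20 higher, 3 lower) with all 34 libraries as samples and 17 (14 higher, 3 lower) without the unlabelled and 720 min libraries (added after seeing the data), which is 52.4%, 54.8% and 40.5% of members beside 39.9%, 39.6% and 30.9% of all genes. With a single course left out it ranged from 5 to 9 (11.9% to 21.4%), beside 14.5% to 17.3% of all genes. All genes called, 2885, became 5251 with the block and 5311 with all libraries as samples. The numbers were not taken to pair the samples: deviations of same-numbered libraries of a course correlated at 0.032 to 0.0961, and those of the courses of both lines at 0.196, with 2 pairs only. With DESeq2, without the filter on low counts, without the unlabelled or the 720 min libraries, or without multimapped intervals, 10 to 14 members passed. That is 23.8% to 33.3% of members, beside 21.8% to 28.4% of all genes. RAB5B, RAB30, RAB38 and RAB40B passed under all 13 alternatives. RAB8B failed without any single course and without the 720 min libraries, RAB7A without any single course, RAB27B without either knockdown course or overexpression replicate 2, RAB1A without knockdown replicate 1 or overexpression replicate 2, RAB11A without knockdown replicate 1 and RAB29 without overexpression replicate 1 (adjusted p = 0.0503, edgeR). No direction reversed among these 10.

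No member passed over the chase, between labelled and unlabelled cells or in the difference of the chase between the lines under any alternative, the block included. For all genes the chase gave 552 calls in edgeR and 860 in DESeq2, and 281 to 348 when a single course was left out. The label gave 0 calls in edgeR, 4 in DESeq2, 14 without the filter on low counts and 85 in the second courses alone. The interaction gave 2 in edgeR, 13 in DESeq2, 16 without the filter on low counts and 19 with the block. The median log2 half-life ratio of the members stayed between 0.22 and 0.43 over all alternatives (0.23 to 0.43 with a course left out, 0.32 with the block), and 0 members passed in each. With an R2 minimum of 0.8, 9 members were left. Depth limits members under 5 CPM most, which rarely gave a half-life.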
